A study of Mus musculus with 26 samples.

Results

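MHCII negative interstitial macrophages sorted from the lungs of naïve female mice were profiled in 10 of the 26 libraries of the series, 5 from wild-type (WT) and 5 from ACKR2-/- mice, chosen by the tissue, cell type and genotype in the sample labels. ACKR2 is an atypical chemokine receptor, and the study asked how macrophages and their precursors differ when it is missing. WT mice were C57BL/6J, bought from a commercial supplier, while ACKR2-/- mice, which lack the receptor in every cell, came from a homozygous colony kept at the study's own facility. Colony and genotype therefore cannot be told apart in this comparison. No treatment was given to either genotype. The mice were young adults by a statement that covers the whole study, and the number of mice behind each lung library was not given in the sources used here, so p-values measure the spread between libraries.

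Atypical chemokine receptors bind chemokines without the G protein signalling of the classical receptors, and ACKR2 takes up and degrades inflammatory CC chemokines. Interstitial macrophages live in the lung tissue between the airspaces and the vessels, are maintained in part from blood monocytes, and are divided by the amount of MHC class II, the proteins that present antigen to CD4 T cells, on their surface. The stated sort took live CD45+ cells without Ly6G (neutrophils), then cells without SiglecF or Ly6C and with CD11b and F4/80, and of these the MHCII negative cells. No antigen specific to T cells or natural killer (NK) cells was among those of the stated gate, although CD45 and often CD11b are also found on NK cells.

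Between 20245488 and 24219146 reads fell on genes in the WT libraries, and between 19950019 and 29770252 in the ACKR2-/- libraries. Values are given as CPM, read counts scaled to library size and by TMM, and 3 reads corresponded to 0.0985 to 0.160 CPM. WT replicate 3 stood apart, with correlations of 0.894 to 0.945 with the other libraries, and held far more MHC class II transcript than any other library. The library labelled WT replicate 5 and ACKR2-/- replicate 4 correlated with each other at 0.981 and held little RNA of other lung cells: the summed markers of type 2 alveolar epithelium stood at 1534 and 1722 CPM in these, against 5040 to 13978 CPM in the other 8 libraries, and the summed fibroblast markers at 403 and 233 CPM against 863 to 2766 CPM. The main results are therefore also given without WT replicate 3, the library labelled WT replicate 5 and ACKR2-/- replicate 4, which leaves 3 WT against 4 ACKR2-/- libraries.

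The sorted identity was checked on read counts scaled to library size and exon length (RPKM), a unit per length that allows levels to be compared between genes. Csf1r, the receptor for the macrophage growth factor CSF1, stood between 158 and 395 RPKM in all 10 libraries. Markers of nonclassical monocytes, the patrolling monocytes of blood vessels, were high in 9 libraries and low in WT replicate 3: Treml4 stood at 309.5 to 901 against 52.3 RPKM, Cd300e at 206 to 739 against 38.7 RPKM and Ace at 45.2 to 82.2 against 6.69 RPKM. Folr2, a folate receptor of tissue-resident macrophages, stood at 3.06 to 26.9 RPKM in those 9 libraries and at 76.2 RPKM in WT replicate 3. Other markers did not follow this split: Lyve1, which marks the same resident macrophages, stood at 16.1 RPKM in WT replicate 3, within the 3.40 to 46.9 RPKM of the other 9, and Cx3cr1, a receptor of nonclassical monocytes and of macrophages, was highest there, at 59.2 RPKM against 17.0 to 43.1 RPKM. Siglecf, absent from the gate, did not exceed 4.21 RPKM, and Ly6g did not exceed 0.395 RPKM and was at 0 in 6 libraries. Ly6c2, a gene of the Ly6C antigen that the gate also excluded, was not uniformly low. It did not exceed 3.29 RPKM in the library labelled WT replicate 5 and in ACKR2-/- replicate 4. In the other libraries it stood at 10.6 to 41.8 RPKM, where Itgam, the gene of the required CD11b, stood at 8.41 to 30.9 RPKM over all libraries. The genotypes overlapped in Ly6c2. Sftpc, a surfactant protein of alveolar epithelium, was present in all libraries, from 175 to 9811 RPKM. Among further macrophage genes, Mertk stood at 0.204 to 3.07 RPKM in those 9 libraries and at 4.17 RPKM in WT replicate 3. The study reported no MerTK on the surface of these cells. Mrc1, the gene of CD206, stood at 1.45 to 5.64 against 24.98 RPKM, and C1qa, a complement gene of tissue macrophages, at 62.5 to 338 against 2643 RPKM. In the 9 libraries Mertk, Mrc1 and Folr2 thus stood below Treml4, Cd300e and Ace, while C1qa was well detected. The share of interstitial macrophages in them was not measured. The label is used below as the name of the sort gate.

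The targeted gene was examined first. Ackr2 (chr9:121898355-121911074, plus strand, GRCm38) stood at 22.1, 17.7, 7.75, 14.6 and 0 CPM in WT replicates 1 to 5 and at 1.64, 1.37, 1.07, 0.282 and 0.372 CPM in the ACKR2-/- libraries. These values rest on 1427 Ackr2 reads over the WT and 127 over the ACKR2-/- libraries. The library labelled WT replicate 5 held 0 Ackr2 reads, which allows a level of up to 0.151 CPM, and lay below every ACKR2-/- library, which goes against its label, and each direction below includes it as labelled unless the text says otherwise. The mean difference (ACKR2-/- minus WT) was -11.5 CPM (WT 12.4 ± 8.70, ACKR2-/- 0.949 ± 0.603, SD, n = 5 each; exact two-sided permutation test, p = 0.048, adjusted over 5 genes 0.079). In edgeR's quasi-likelihood fit the log2 fold change was -3.69 ± 1.04 (SE), which did not pass the adjusted threshold, and without the 3 libraries it was -3.98 ± 0.44 (adjusted p = 0.0966). DESeq2 called Ackr2 lower in both sets, with adjusted p of 0.0492 and 3.9e-16. Limma with library quality weights called Ackr2 lower without the 3 libraries (adjusted p = 0.0108) and not with all libraries (0.524).

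Wdfy1, a FYVE-domain protein of early endosomes that takes part in Toll-like receptor signalling, gave the clearest separation of the 5 genes. It stood at 7.89, 15.1, 9.41, 13.2 and 14.5 CPM in WT and at 37.3, 29.3, 26.8, 30.2 and 26.1 CPM in ACKR2-/- libraries. The lowest ACKR2-/- library was above the highest WT library, and WT replicate 3 and the libraries low in tissue RNA lay within the range of the other libraries of their genotype. The means were 12.01 ± 3.19 and 29.9 ± 4.46 CPM (SD, n = 5 each; exact two-sided permutation test, p = 0.0079, the smallest this design allows, adjusted over 5 genes 0.04). As Wdfy1 was chosen with earlier results of these data known, these p-values do not account for the choice among 16824 genes. Over all of those genes the adjusted p of edgeR's quasi-likelihood test was 0.9999. The log2 fold change was 1.32 ± 0.22 (SE) with all libraries and 1.32 ± 0.27 without the 3. DESeq2 called it higher in both sets, with adjusted p of 6.2e-05 and 0.0020, while edgeR did not. Wdfy1 lies on chromosome 1 (chr1:79702262-79776143, minus strand), on another chromosome than Ackr2.

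The genes that define the gate did not separate the genotypes. Csf1r stood at 913 to 2278 CPM in ACKR2-/- and 988 to 1949 CPM in WT libraries (exact two-sided permutation test, p = 0.8). H2-Ab1, a chain of the MHC class II protein used for the gate, stood at 1708, 1031, 21242, 773 and 566 CPM in WT and at 1304, 1361, 1063, 253 and 1453 CPM in ACKR2-/- libraries. WT replicate 3 was more than an order of magnitude above the other 9, and the difference (ACKR2-/- minus WT) turned from -3977 CPM with all libraries to 139.5 CPM without the 3 (exact two-sided permutation tests, p = 0.59 and 0.63). C1qa, a chain of the complement protein C1q made by tissue macrophages, stood at 351, 213, 2749, 174 and 299.7 CPM in WT and at 109, 200, 245, 96.2 and 65.0 CPM in ACKR2-/- libraries. Its difference was -614 CPM (exact two-sided permutation test, p = 0.04, adjusted 0.079) with all libraries and -91.1 CPM without the 3 libraries (p = 0.29), a set of 3 against 4 in which p cannot go below 0.057.

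**Figure D1:**
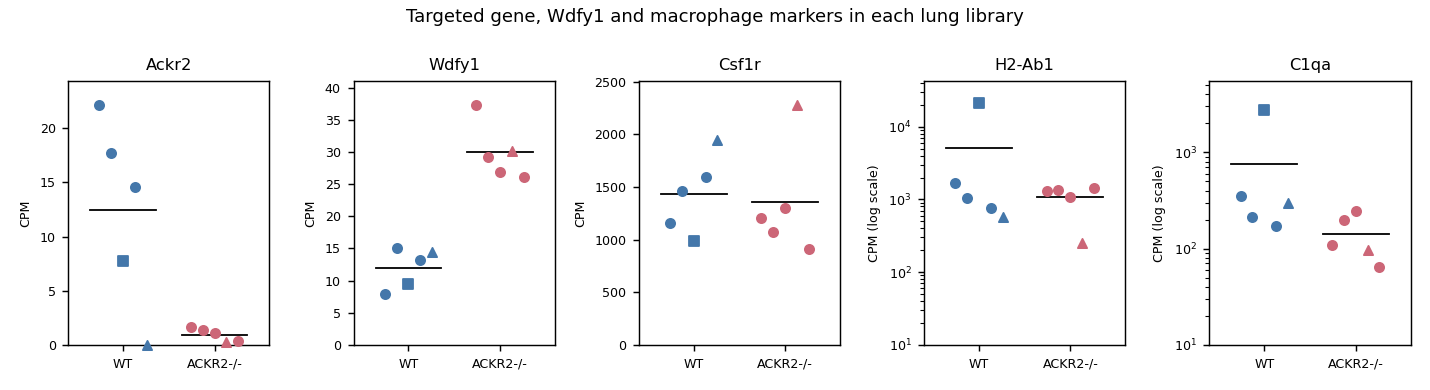
CPM of Ackr2, Wdfy1, Csf1r (linear axes), H2-Ab1 and C1qa (log axes) in each of the 5 WT and 5 ACKR2-/- libraries, with the group mean as a line; the square is WT replicate 3 and the triangles are the library labelled WT replicate 5 and ACKR2-/- replicate 4. Wdfy1 alone does not overlap between genotypes among these 5 genes, and H2-Ab1 and C1qa peak in WT replicate 3 at 21242 and 2749 CPM.

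Across all 16824 genes tested, edgeR called 0 higher and 0 lower (0% of genes each; adjusted p under 0.05 and a log2 fold change over 0.5), and its smallest adjusted p was 0.9999. At an unadjusted p under 0.05, 209 genes (1.24%) were higher and 290 (1.72%) lower in ACKR2-/- libraries. DESeq2 called 16 genes higher (0.0951%) and 4 lower (0.0238%), and limma with library quality weights called 0 and 0 (smallest adjusted p = 0.100). The 2 genotypes did not overlap in 37 genes that were higher (0.22%) and 38 that were lower (0.226%). Without the 3 libraries 17808 genes were tested, and edgeR again called 0 in either direction (0% each; 429 higher, 2.41%, and 228 lower, 1.28%, at an unadjusted p under 0.05). In that set DESeq2 called 48 genes higher (0.27%) and 3 lower (0.0168%), limma with quality weights, an alternative added after the data were seen, called 60 higher (0.337%) and 3 lower (0.0168%), and 536 genes (3.01%) lay higher and 485 (2.72%) lower without overlap. The median log2 fold change over all genes was -0.04 with all libraries and -0.03 without the 3, and 44.8% and 47.2% of genes were higher.

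Of the 16 genes that DESeq2 called higher, 4 are in the NK cell list and 5 carry a Klr symbol. NK cells kill infected or transformed cells with granules of perforin and granzymes, and read their targets through receptors of the Klr family. All 8 listed NK genes were higher in ACKR2-/- libraries and had an unadjusted p under 0.05 in edgeR, where 1.24% of all genes did, with a median log2 fold change of 2.08 against -0.04 over all genes. None of the 8 was called by edgeR, and none was free of overlap between genotypes. Without the 3 libraries all 8 again had an unadjusted p under 0.05, where 2.41% of all genes were higher at that level, the median was 2.19, and 4 of the 8 (Nkg7, Klre1, Gzma and Klrb1c) did not overlap, against 3.01% of all genes. In bulk libraries more cells of a type and more RNA per cell cannot be told apart.

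The windows upstream of Nkg7, Gzma and Klre1, the NK genes with the smallest edgeR p, are shown because these genes were high in the same libraries. Each is the 250 bases before a RefSeq start in GRCm38.p6, in the direction of the gene; capitals mark the RUNX core TGTGGT, which on the other strand reads as ACCACA, and, in Nkg7, the T-box element GGTGTG, which on the other strand reads as CACACC. For Klre1 the earlier of its start sites is shown, and the window of its later start held neither element.
Nkg7, chr7:43436888-43437137, plus strand: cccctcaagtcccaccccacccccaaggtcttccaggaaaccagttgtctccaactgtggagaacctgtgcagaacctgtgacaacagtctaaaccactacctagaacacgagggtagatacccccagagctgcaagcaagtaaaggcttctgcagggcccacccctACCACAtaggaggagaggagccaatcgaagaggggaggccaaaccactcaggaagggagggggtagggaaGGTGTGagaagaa
Gzma, chr13:113100982-113101231, minus strand: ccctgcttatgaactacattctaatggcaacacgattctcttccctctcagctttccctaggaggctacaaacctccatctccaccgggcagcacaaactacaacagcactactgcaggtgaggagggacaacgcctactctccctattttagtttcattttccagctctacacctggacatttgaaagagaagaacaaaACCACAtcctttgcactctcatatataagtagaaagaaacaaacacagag
Klre1, chr6:129577963-129578212, plus strand: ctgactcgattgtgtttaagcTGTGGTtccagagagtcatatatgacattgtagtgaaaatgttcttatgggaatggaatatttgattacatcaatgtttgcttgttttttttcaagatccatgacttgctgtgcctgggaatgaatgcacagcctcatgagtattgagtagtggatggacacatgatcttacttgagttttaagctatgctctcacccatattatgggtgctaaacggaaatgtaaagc
RUNX and T-box proteins are transcription factors of cytotoxic lymphocytes. The RUNX core was found in the windows of 7 of the 8 NK genes, all but Eomes, and in 15.9% of 27025 genes with a window. The T-box element was found in 1 of the 8 genes, Nkg7, and, counted per window and not per gene, in 16.3% of all 32851 windows. A match describes letters in a window, not a site in use.

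Nkg7, a membrane protein of cytotoxic granules, stood at 131, 81.5, 64.2, 164 and 100.3 CPM in WT and at 748, 828, 345, 130.4 and 384 CPM in ACKR2-/- libraries. Gzma, the protease granzyme A, stood at 145, 116, 76.8, 205 and 188 CPM in WT and at 991, 1271, 446, 193 and 458 CPM in ACKR2-/- libraries. Klre1, an NK receptor, stood at 9.40, 8.92, 6.77, 16.6 and 12.8 CPM against 85.0, 104, 45.2, 16.0 and 25.1 CPM. In all 3 genes ACKR2-/- replicate 4, a library low in tissue RNA, lay within the WT range, and the other 4 ACKR2-/- libraries lay above every WT library. The log2 fold changes were 2.17 ± 0.45 for Nkg7, 2.20 ± 0.47 for Gzma and 2.34 ± 0.49 for Klre1 (SE). DESeq2 called all 3 higher, with adjusted p of 0.0026, 0.0033 and 0.0026, and without the 3 libraries 1.6e-05, 1.6e-05 and 8.2e-05.

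Klrb1c, the NK1.1 antigen of C57BL/6 mice, stood at 6.87 to 20.2 CPM in WT and 15.1 to 109 CPM in ACKR2-/- libraries, and DESeq2 called it higher (log2 fold change 2.17, adjusted p = 0.0335). Prf1, which encodes perforin, stood at 13.8 to 52.9 CPM in WT and at 274, 238, 125, 45.5 and 33.8 CPM in ACKR2-/- libraries. Gzmb, granzyme B, stood at 26.2 to 128 CPM in WT and at 389.6, 429, 276, 67.6 and 101 CPM in ACKR2-/- libraries. Ncr1, the NK receptor NKp46, stood at 10.8 to 25.9 CPM in WT and at 97.8, 95.8, 50.0, 20.2 and 9.41 CPM in ACKR2-/- libraries. Eomes, a T-box transcription factor of NK cells, stood at 2.07 to 10.8 CPM in WT and at 41.4, 29.1, 17.8, 7.48 and 9.46 CPM in ACKR2-/- libraries. For these last 4 genes ACKR2-/- replicates 1 to 3 lay above every WT library and replicates 4 and 5 did not. DESeq2 called none of them with all libraries, and without the 3 it called Prf1 (log2 fold change 2.18, adjusted p = 0.0190).

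The summed NK list stood at 479, 316, 209, 601 and 483 CPM in WT and at 2726, 3104, 1359, 495 and 1047 CPM in ACKR2-/- libraries, so 4 ACKR2-/- libraries lay above the WT range and replicate 4 within it. When each library was left out in turn, all 8 genes stayed higher with an unadjusted p under 0.05 and the median log2 fold change ran from 1.77 to 2.32. The stated gate required F4/80, which most NK cells lack. How many NK cells the sorts held was not measured.

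**Figure D2:**
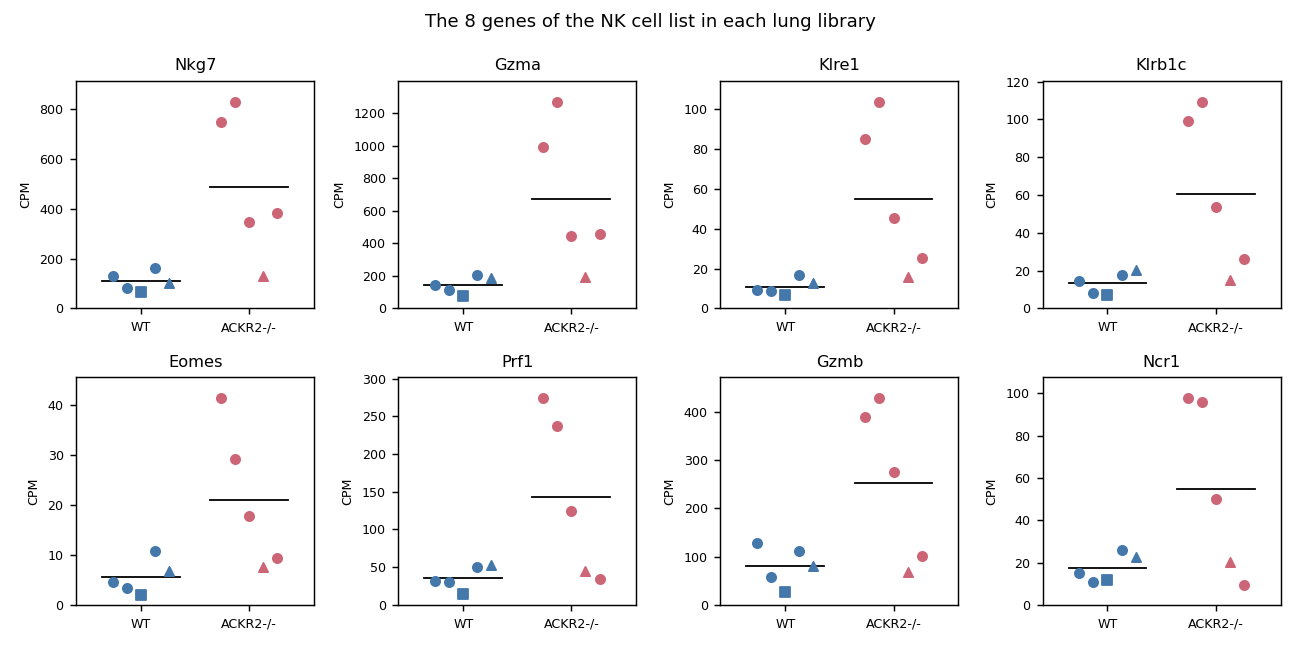
CPM of the 8 listed NK genes in each WT and ACKR2-/- library, on linear axes, with the group mean as a line and the libraries marked as above. In each gene ACKR2-/- replicates 1 to 3 lie above all WT libraries, and ACKR2-/- replicate 4 lies within the WT range.

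The wider Klr family stood higher as well. Of 30 genes with a Klr symbol 20 were tested, 19 were higher and 15 had an unadjusted p under 0.05, with a median log2 fold change of 1.68. Over all genes 44.8% were higher, and 1.24% were higher at that level. DESeq2 called 5 higher, where it called 0.0951% of all genes higher. These were Klre1 and Klrb1c, both also in the NK list, Klra9 (log2 fold change 2.09, adjusted p = 0.0232), Klrc2 (2.21, 0.0452) and Klrg1 (2.11, 0.0492). The tested members summed to 233 to 406 CPM in WT and to 1093, 1141, 628, 413 and 411 CPM in ACKR2-/- libraries, so replicates 1 to 3 stood apart and replicates 4 and 5 lay just above the WT maximum. The Klra and Klrc genes have near-identical copies among which reads could be split, so values of single members are uncertain.

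DESeq2 also called genes outside the NK list that are known from lymphocytes. Il2rb, the beta chain of the receptors for IL-2 and IL-15, stood at 68.1, 61.6, 20.6, 66.0 and 72.0 CPM in WT and at 391, 306, 161, 72.4 and 109.6 CPM in ACKR2-/- libraries. AW112010, a long RNA induced in activated lymphocytes, stood at 235, 157, 161, 210.3 and 212 CPM in WT and at 899.6, 903, 406, 242 and 464 CPM in ACKR2-/- libraries. Neither overlapped between genotypes, although ACKR2-/- replicate 4 lay just above the WT maximum in both. DESeq2 called Il2rb (log2 fold change 1.86, adjusted p = 0.0492) and AW112010 (1.59, 0.0127). Ms4a4b, a membrane protein of T and NK cells, was called at a log2 fold change of 1.30 (adjusted p = 0.0492).

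Ccl5, a CC chemokine that ACKR2 binds and that cytotoxic lymphocytes make in quantity, stood at 129.99, 70.4, 94.8, 151 and 133 CPM in WT and at 785, 796, 345, 118 and 305 CPM in ACKR2-/- libraries. ACKR2-/- replicate 4 again lay within the WT range and the others above it. DESeq2 called Ccl5 at a log2 fold change of 2.03 (adjusted p = 0.0127), and at 2.28 (6.9e-05) without the 3 libraries.

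T cell genes differed less. Of 10 listed T cell genes 9 were higher, 1 of them at an unadjusted p under 0.05, with a median log2 fold change of 0.70, and without the 3 libraries 9 were higher, 4 at that level, with a median of 0.71. Lck, a kinase of the T cell receptor that NK cells also express, gave the smallest p, with a log2 fold change of 1.16 ± 0.45 (SE). Cd3e, a chain of the T cell receptor complex, stood at 7.55 to 31.4 CPM in WT and at 5.31 to 38.7 CPM in ACKR2-/- libraries, which overlap (log2 fold change 0.80 ± 0.50). The summed T cell list stood at 84.1 to 282 CPM in WT and at 68.6 to 428 CPM in ACKR2-/- libraries, lowest in the library labelled WT replicate 5 and in ACKR2-/- replicate 4 of their groups.

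Markers of other lung cells ranged widely within both genotypes. Summed markers of B cells stood at 873 to 5797 CPM in WT and 646 to 1529 CPM in ACKR2-/- libraries, highest in WT replicate 3. Dendritic cell markers stood at 1904 CPM in WT replicate 3 and at 119 to 460 CPM elsewhere. Blood endothelial markers stood at 236 to 1665 CPM in WT and 218 to 1463 CPM in ACKR2-/- libraries, and alveolar macrophage markers at 133 to 1793 and 87.2 to 1852 CPM, each lowest in the library labelled WT replicate 5 and in ACKR2-/- replicate 4. The low NK values of ACKR2-/- replicate 4 thus came in a library that was also low in other lung cells, while the library labelled WT replicate 5, equally low in them, stood at 483 CPM for the NK list, within the range of the other WT libraries. The part of these cells in the NK result was not tested.

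**Figure D3:**
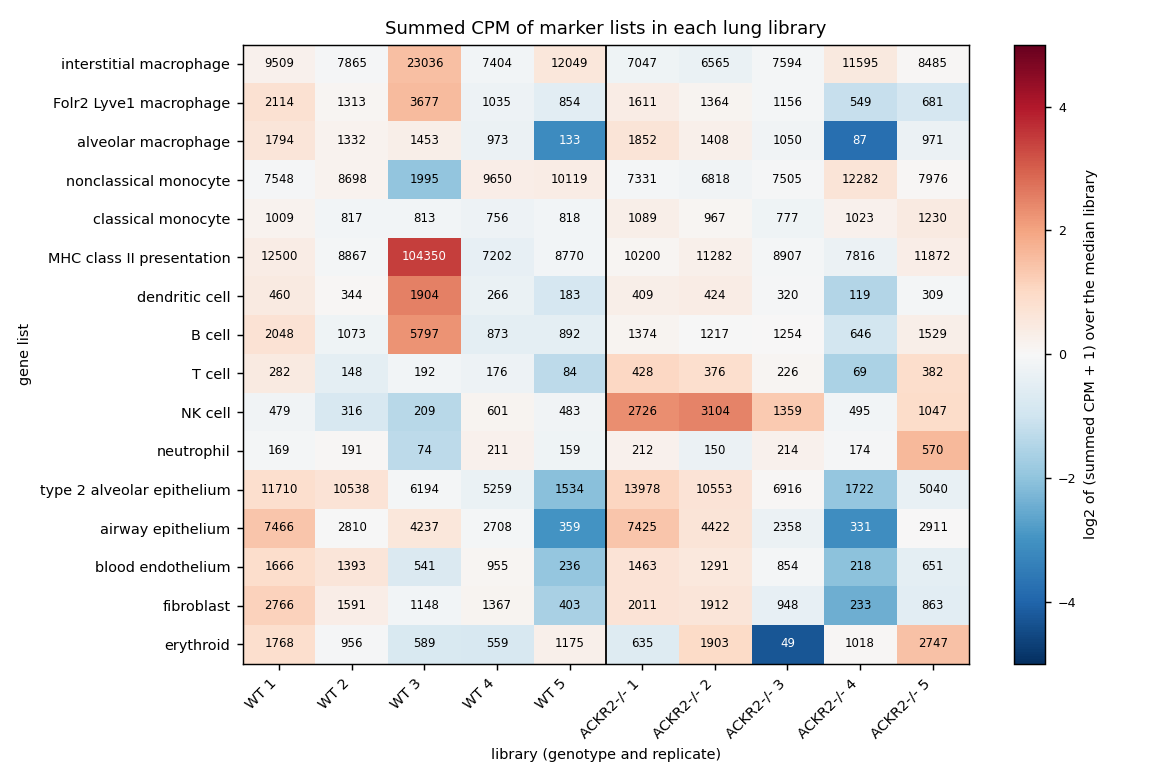
Summed CPM of 16 marker lists (lines) in each library (columns); the numbers are summed CPM and the colour is the log2 ratio of summed CPM plus 1 to the median library, limited to 5 in either direction. The NK line is high in ACKR2-/- replicates 1, 2, 3 and 5, and the epithelial, endothelial and fibroblast lines are low in the library labelled WT replicate 5 and in ACKR2-/- replicate 4.

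Cytosolic ribosomal protein genes, which encode the protein part of the translating ribosome, were nearly all higher in ACKR2-/- libraries by small amounts. Of 82 tested members 79 were higher and 3 lower, 7 at an unadjusted p under 0.05, with a median log2 fold change of 0.45, and without the 3 libraries 81 were higher, 51 at that level, with a median of 0.72, and 27 did not overlap. Over all genes 1.24% and 2.41% were higher at that level in the 2 sets, and 3.01% were higher without overlap in the smaller set. Rps29 stood at 171, 149, 212, 129 and 196 CPM in WT and at 197, 263, 189, 219 and 501 CPM in ACKR2-/- libraries. Rpl7 stood at 396, 311, 439.7, 285 and 390.3 CPM in WT and at 413, 528, 404, 471 and 797 CPM. The ranges overlapped in both genes and ACKR2-/- replicate 5 was the highest library.

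The summed ribosomal list stood at 17441, 13787, 21826, 12398 and 17451 CPM in WT and at 17502, 23040, 16264, 19524 and 36996 CPM in ACKR2-/- libraries. ACKR2-/- replicate 5 carried much of the difference: without it the median log2 fold change was 0.21 and 0 members had an unadjusted p under 0.05. Without WT replicate 3 the median was 0.60, and the count at an unadjusted p under 0.05 was 41. With all 4 of these libraries left out, which leaves 3 against 3 and was added after the data were seen, the median was 0.40 and the count 27. These genes have many processed pseudogenes with which reads can be shared.

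Nuclear genes of oxidative phosphorylation, the mitochondrial machinery that makes ATP, were highest in the same library. Of 83 tested members 72 were higher and 11 lower, 1 at an unadjusted p under 0.05, with a median log2 fold change of 0.21, and without the 3 libraries 78 were higher, 4 at that level, with a median of 0.39. Cox7a2l, a factor of respiratory supercomplexes, was higher by 0.53 on the log2 scale and by 0.69 without the 3 libraries. Ndufb11, a subunit of complex I, was higher by 0.43 and 0.66. The summed list stood at 8201 to 12938 CPM in WT and 8932 to 16397 CPM in ACKR2-/- libraries, highest in ACKR2-/- replicate 5, and without that library the median was 0.07. The mitochondrially encoded genes of the same machinery summed to 2823 to 5332 CPM in WT and 2329 to 6166 CPM in ACKR2-/- libraries and overlapped throughout.

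Immediate early genes, the transcription factors and feedback regulators that cells induce within minutes of a stimulus or of tissue digestion, were nearly all lower. Of 26 members 25 were lower and 1 higher, 6 at an unadjusted p under 0.05 where 1.72% of all genes were, with a median log2 fold change of -0.25, and 3 did not overlap, against 0.226% of all genes. Without the 3 libraries 22 were lower, 5 at that level where 1.28% of all genes were, with a median of -0.28, and 7 did not overlap, against 2.72% of all genes. edgeR, DESeq2 and limma called none of the 26.

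Jun, a subunit of the AP-1 transcription factor, stood at 896, 929, 815, 1319.5 and 834 CPM in WT and at 642, 592, 786, 483 and 496 CPM in ACKR2-/- libraries. Zfp36, which speeds the decay of inflammatory mRNAs, stood at 3603, 3987, 3916, 4075 and 3768 CPM in WT and at 2976, 2284, 3236, 3366 and 2370.3 CPM. Dusp1, a phosphatase that shuts off MAP kinases, stood at 4354, 3631, 3753, 4818 and 3539 CPM in WT and at 3535, 3042, 3299, 2935 and 2065 CPM. In these 3 genes every ACKR2-/- library lay below every WT library, for Dusp1 by a margin of a few CPM. The log2 fold changes were -0.68 ± 0.20 for Jun, -0.44 ± 0.17 for Zfp36 and -0.43 ± 0.19 for Dusp1 (SE), with an adjusted p of 0.9999 in edgeR each. Junb, another AP-1 subunit, overlapped by a narrow range, with 1538 to 2260 CPM in WT and 1196 to 1579 CPM in ACKR2-/- libraries.

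The summed immediate early list stood at 27303, 26808, 26280, 31278 and 23006 CPM in WT and at 22604, 20178, 24017, 19697 and 18222 CPM in ACKR2-/- libraries, where only ACKR2-/- replicate 3 reached into the WT range, above the library labelled WT replicate 5. With each library left out in turn the median ran from -0.20 to -0.36. Related stress lists were less uniform. Of 14 heat shock genes 10 were lower, with a median of -0.13, and of 22 genes of the unfolded protein response 16 were lower, with a median of -0.09. The inducible chaperones Hspa1a and Hspa1b were each lower by 0.70 on the log2 scale, and Ppp1r15a, a phosphatase subunit of the stress response, by 0.65.

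Inflammatory mediators, mostly cytokines and neutrophil chemokines, also stood lower on the whole. Of 16 tested 14 were lower, 4 at an unadjusted p under 0.05, with a median log2 fold change of -0.56, and without the 3 libraries 13 of 17 were lower, 3 at that level, with a median of -0.34. Il10, an anti-inflammatory cytokine, stood at 17.1, 17.7, 23.5, 16.3 and 8.71 CPM in WT and at 9.03, 10.2, 9.67, 3.34 and 5.21 CPM in ACKR2-/- libraries. The genotypes overlapped only through the library labelled WT replicate 5. Cxcl2, a neutrophil chemokine, stood at 519, 585, 1136, 352 and 294 CPM in WT and at 304, 226, 349, 88.8 and 217 CPM, and overlapped through the same library. The log2 fold changes were -1.15 for Il10, -1.28 for Cxcl2 and -1.09 for Tnf, and without the 3 libraries -0.99, -0.81 and -0.76. The summed list stood at 2108 to 5310 CPM in WT and 1595 to 3162 CPM in ACKR2-/- libraries, highest in WT replicate 3.

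**Figure D4:**
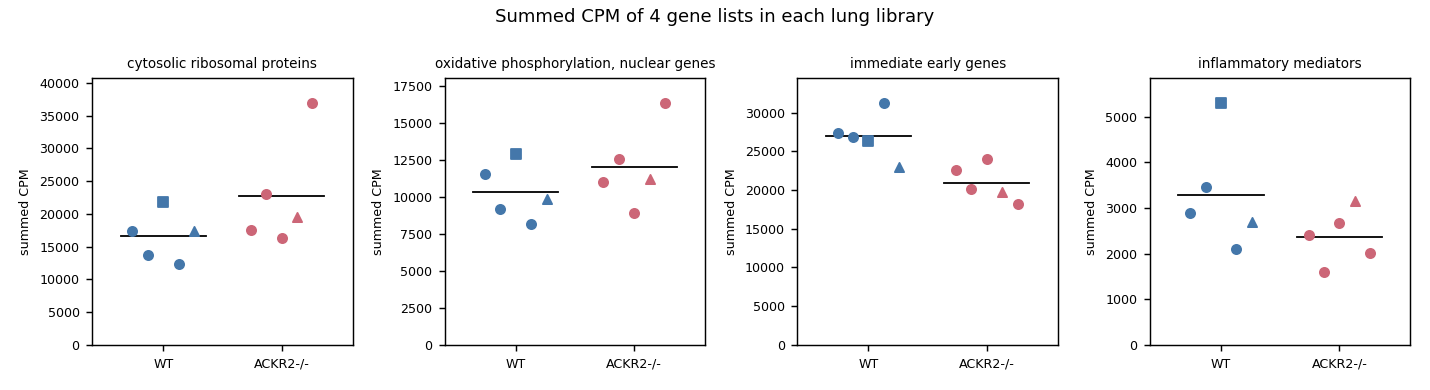
Summed CPM of 4 lists (cytosolic ribosomal proteins, nuclear oxidative phosphorylation genes, immediate early genes and inflammatory mediators) in each library, with the group mean as a line and the libraries marked as above. ACKR2-/- replicate 5 is the highest library for the ribosomal list at 36996 CPM, and 4 of the 5 ACKR2-/- libraries lie below all WT libraries for the immediate early genes.

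Antigen presentation divided by class with all libraries, but not once WT replicate 3 was left out. Of 12 MHC class II genes 12 were lower with all libraries, 5 at an unadjusted p under 0.05, with a median log2 fold change of -1.40, whereas without the 3 libraries 10 were higher and 2 lower, with a median of 0.19. WT replicate 3 decided this direction, since its summed list stood at 104350 CPM against 7202 to 12500 CPM in the other WT libraries and 7816 to 11872 CPM in ACKR2-/- libraries, and without it alone the median was 0.14. Ciita, the master regulator of MHC class II genes, was lower by 2.40 on the log2 scale and by 0.73 without the 3. Of 15 MHC class I genes 13 were higher and 2 lower, 0 at an unadjusted p under 0.05, with a median of 0.24, and without the 3 libraries 12 were higher, 1 at that level, with a median of 0.27.

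H2-Q7, a class I molecule of the Qa-2 type outside that list, stood at 62.5, 71.5, 45.4, 64.7 and 76.5 CPM in WT and at 112, 99.7, 98.3, 95.9 and 102 CPM in ACKR2-/- libraries. The groups did not overlap, and DESeq2 called H2-Q7 at a log2 fold change of 0.68 (adjusted p = 0.0475) with all libraries and 0.67 (0.0116) without the 3. The Qa-2 genes are near-identical copies, so reads may be split among them.

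The inflammatory CC chemokines as a list, Ccl5 included, stood mostly lower with all libraries. Of 11 listed 9 were lower and 2 higher, with a median log2 fold change of -1.32, and without the 3 libraries 6 were higher and 5 lower, with a median of 0.04. Ccl7, which draws monocytes through CCR2, was lower by 1.80 on the log2 scale with all libraries and by 0.98 without the 3, and Ccl12, another CCR2 ligand, by 2.73 and 0.77. The summed list stood at 4356 CPM in WT replicate 3, at 943 to 1764 CPM in the other WT libraries and at 529 to 2086 CPM in ACKR2-/- libraries.

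Of 17 chemokine receptors 11 were lower and 6 higher, 3 of the lower at an unadjusted p under 0.05, with a median of -0.41, and without the 3 libraries 9 were lower and 8 higher, with a median of -0.07. Ccr2, the receptor that brings monocytes from bone marrow to tissue, stood at 29.9, 25.1, 337, 37.3 and 30.5 CPM in WT and at 52.2, 48.9, 50.5, 55.5 and 53.0 CPM in ACKR2-/- libraries. The 5 ACKR2-/- values spread by a few CPM and lay above 4 of the WT libraries and below WT replicate 3, so the log2 fold change turned from -0.82 to 0.75 without the 3 libraries (DESeq2, adjusted p = 0.0740). Ccr1, a further receptor for inflammatory CC chemokines, was lower by 1.63 and by 0.64. Ccr1 and Ccr2 lie on chromosome 9 with Ackr2, at 123962124 and 124101950 against 121898355 for their first base.

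Complement and macrophage lists also rested in part on WT replicate 3. Of 16 complement genes 11 were lower, 6 at an unadjusted p under 0.05, with a median of -0.56, and without the 3 libraries 12 were lower, 0 at that level, with a median of -0.17. C1qc and C3ar1, a chain of C1q and the receptor for C3a, were lower by 2.46 and 2.37 on the log2 scale and by 0.77 and 0.88 without the 3. Of 11 interstitial macrophage markers 11 were lower, with a median of -0.58, and without the 3 libraries 8 were lower and 3 higher, with a median of -0.31. Of 10 genes of Folr2 and Lyve1 macrophages, the perivascular tissue-resident type, 10 were lower in both sets, 4 and 0 at an unadjusted p under 0.05, with medians of -1.12 and -0.56. Folr2 itself stood at 41.5, 19.8, 118, 18.6 and 37.1 CPM in WT and at 12.1, 22.8, 22.4, 14.0 and 4.73 CPM in ACKR2-/- libraries, which overlap. Of 9 nonclassical monocyte markers 8 were higher with a median of 0.33, and without the 3 libraries 5 were higher with a median of 0.06.

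The transcription factors of macrophages had no common direction, with 7 of 20 higher and a median of -0.11. Irf8, which directs monocyte and dendritic cell development and is also expressed in NK cells, stood at 215, 183, 315, 255 and 271 CPM in WT and at 587, 490.0, 385, 272 and 266 CPM in ACKR2-/- libraries. ACKR2-/- replicates 1 to 3 lay above every WT library and replicates 4 and 5 within the WT range, and limma with quality weights called Irf8 higher without the 3 libraries (log2 fold change 1.29, adjusted p = 0.0236). Of 28 interferon stimulated genes 14 were higher and 14 lower, 0 at an unadjusted p under 0.05, with a median of -0.01, near that of all genes.

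**Figure D5:**
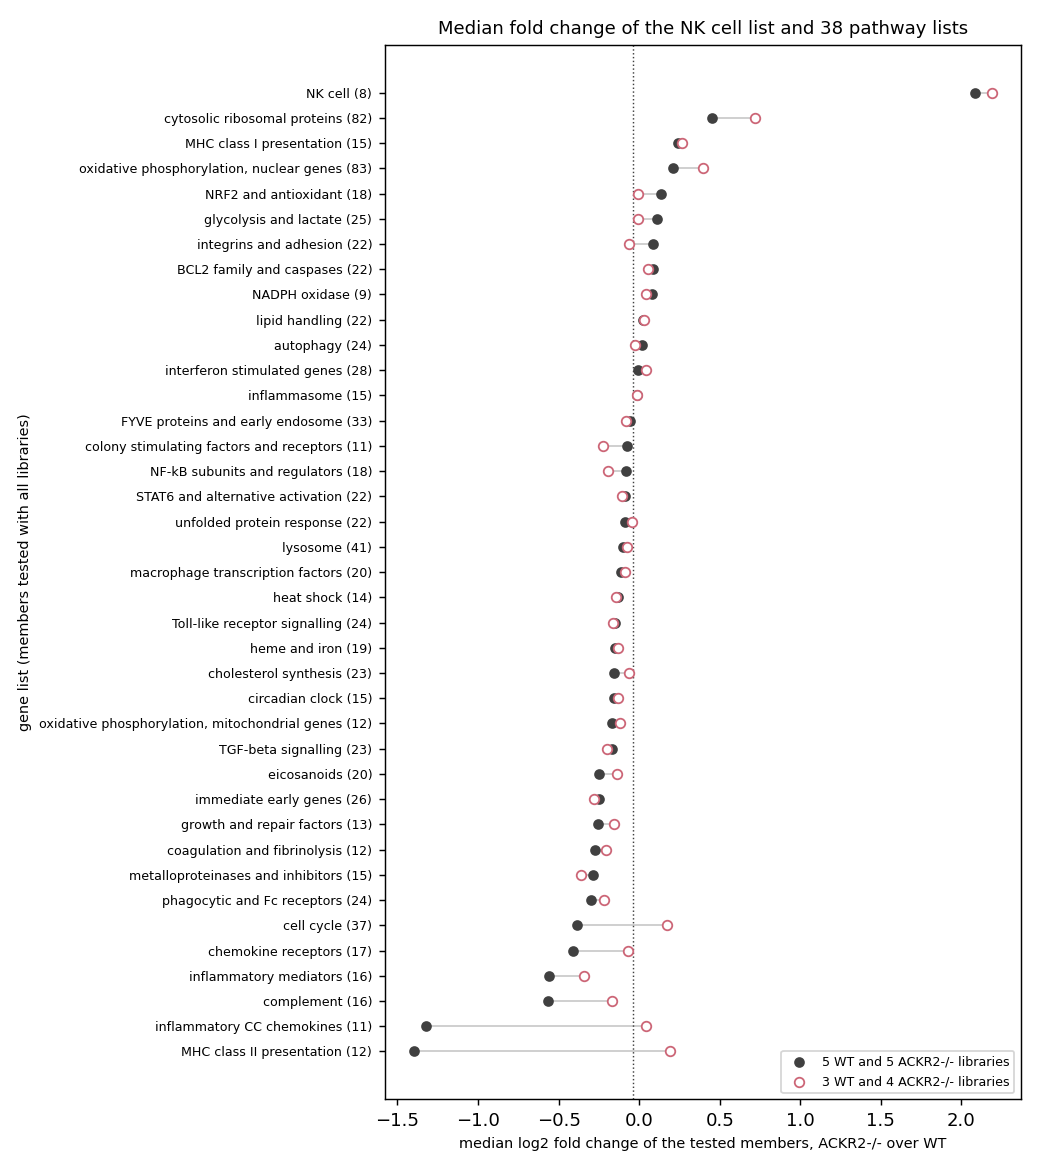
Median log2 fold change (ACKR2-/- over WT, edgeR) of the NK list and 38 pathway lists, filled points with all 10 libraries and open points without the 3; the dotted line is the median over all genes. The NK list stands at 2.08 and 2.19, and the MHC class II list moves from -1.40 to 0.19.

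A few single genes outside these lists were also called. ENSMUSG00000120808, a gene without a symbol in the tables used, stood at 4.86, 9.40, 3.72, 8.70 and 5.79 CPM in WT and at 1.08, 1.23, 1.72, 2.09 and 2.02 CPM in ACKR2-/- libraries, without overlap. DESeq2 called it lower (log2 fold change -1.97, adjusted p = 0.00014), and without the 3 libraries DESeq2 and limma with quality weights both did (-2.31, 5.9e-05 and -2.73, 0.0205). Ispd, an enzyme that helps to glycosylate dystroglycan, stood at 5.62, 4.21, 4.13, 5.72 and 1.66 CPM in WT and at 1.74, 0.615, 1.63, 0.724 and 0.532 CPM, and DESeq2 called it lower in both sets (adjusted p = 0.0335 and 0.0145). Its groups overlapped only through the library labelled WT replicate 5. G530011O06Rik, a transcript of the X chromosome, was called lower by DESeq2 with all libraries (log2 fold change -2.31, adjusted p = 0.0439) and not without the 3 (adjusted p = 0.342).

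Among the higher genes, Gm33460 stood at 0.331, 0.203, 0.413, 0.431 and 0.604 CPM in WT and at 3.22, 3.33, 1.68, 0.805 and 1.06 CPM in ACKR2-/- libraries, and DESeq2 called it (log2 fold change 2.37, adjusted p = 0.0419). It is annotated antisense to Eomes, with which it overlaps at its 3′ end (chr9:118485559-118489099 against chr9:118478212-118486132), and since no strand setting is stated for the counts, reads of the 2 genes cannot be told apart there. Phactr3, a regulator of actin and protein phosphatase 1, was called at a log2 fold change of 2.36 (adjusted p = 0.0492). Gm19774, a processed pseudogene, stood at 0.353 to 0.897 CPM in WT and at 6.93, 8.68, 0.559, 7.48 and 0.957 CPM in ACKR2-/- libraries, which fall apart into high and low libraries (DESeq2, log2 fold change 3.34, adjusted p = 0.0101).

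Of the genes that were lower without overlap but were called by no tool, P2rx4, an ATP-gated ion channel of macrophages, stood at 78.7, 96.4, 122, 80.3 and 95.8 CPM in WT and at 69.1, 67.1, 60.7, 58.6 and 61.5 CPM in ACKR2-/- libraries. The log2 fold change was -0.58 ± 0.15 with all libraries and -0.39 ± 0.16 without the 3 (SE). Cxcl13, a B cell chemokine, stood at 25.7, 25.2, 472, 13.01 and 26.4 CPM in WT and at 9.06, 12.3, 9.24, 6.48 and 5.26 CPM in ACKR2-/- libraries, and its log2 fold change went from -3.73 to -1.23 without the 3. Chp2, a calcineurin-like calcium-binding protein, stood at 2.93, 3.28, 10.3, 2.08 and 2.92 CPM in WT and at 0.690, 1.95, 0.688, 1.09 and 0.479 CPM. In Cxcl13 and Chp2 WT replicate 3 was the highest library, and the lowest WT library lay just above the ACKR2-/- maximum.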

How the data were processed

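RNA of sorted lung macrophages was amplified with a SMARTer Ultra Low Input kit, selected for poly-A and sequenced as paired-end reads. The authors deposited raw read counts per gene, with no normalization. Per the labels, HISAT2 2.0.5, featureCounts 1.5.0-p3, DESeq2 and mm10 were used in the series; the lung table ends in 5 summary lines of another counter's form, so its counter, annotation and strand setting are not settled here. No gene is named in them, and their 56.3% share of the counts entered no library size. Of 57186 genes, 51880 had a symbol and 16824 passed filterByExpr (minimum count 10, minimum total 15).

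Genotypes were compared with edgeR 4.0.16 (TMM, quasi-likelihood test) in R 4.3.3, Benjamini-Hochberg adjusted over all genes, and called at an adjusted p under 0.05 and a log2 fold change over 0.5. DESeq2 1.42.0, limma 3.58.1 (voomWithQualityWeights), other filters and scalings, each library left out and a replicate block were alternatives. The code was tested on simulated counts, in which DESeq2's calls held more false ones than its threshold allows and than those of edgeR or limma, so a gene called by DESeq2 alone is less certain. Exact two-sided permutation tests were run for 5 genes. Promoter windows came from RefSeq.

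Members, lists and tests were chosen with earlier results of these data known. Named genes were the targeted gene, Csf1r, H2-Ab1, C1qa, Wdfy1 and the sort antigens, the 5 genes of smallest edgeR p without overlap in each direction and set, up to 5 called by DESeq2 in each direction, the 3 of smallest p in each pathway and the first 3 of each marker list. Cd300e, Eomes, Prf1, Gzmb, Lck, Dusp1, Klra9, Klrc2, Klrg1, Ms4a4b and Phactr3 were named after their values were seen. Some genes are not reported here. Same-numbered WT and ACKR2-/- libraries did not pair (correlations of deviations of 0.689, 0.0373, -0.0993, 0.0101 and 0.305). No pair of libraries held identical values, and the smallest chi-square between replicates was 36.1 per degree of freedom.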

Additional observations from a re-analysis of the deposited data

Results flagged for a closer look

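Of 92 groups of 5 libraries examined (28 genes and 18 lists in each genotype), 15 held a library farther from the others than Dixon's 95% critical value allows. The groups share libraries and genes and were chosen with earlier results of these data known. WT replicate 3 had already been set apart by its MHC class II level. The count therefore cannot be set against a chance rate. WT replicate 3 was the distant library in 11 of these 15 groups. It was the highest WT library for H2-Ab1 (21242 CPM), C1qa (2749 CPM), Ccr2 (337 CPM), Cxcl13 (472 CPM), Folr2 (118 CPM) and Mmp12 (820.2 CPM), and the lowest for Il2rb (20.6 CPM). It was also the highest for the summed MHC class II (104350 CPM), CC chemokine (4356 CPM), chemokine receptor (2035 CPM) and complement (13527 CPM) lists. ACKR2-/- replicate 4 was the highest library of its genotype for Csf1r (2278 CPM) and for the summed nonclassical monocyte markers (12282 CPM). WT replicate 4 stood out for Jun (1319.5 CPM), on the side away from the ACKR2-/- libraries. ACKR2-/- replicate 5 stood out for Rps29 (501 CPM), as it did for the whole ribosomal list.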

How the results depend on the processing

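edgeR called 0 genes in either direction with all libraries and in the other edgeR fits (RLE scaling, no filter, a CPM filter, a robust fit, each library left out in turn, and without WT replicate 3, the library labelled WT replicate 5 and ACKR2-/- replicate 4, here the 3 libraries), except that of 3 against 3. DESeq2 called 16 higher and 4 lower, and 48 and 3 without the 3 libraries, of which 18 were shared (90% of its 20 calls and 35.3% of its 51). Limma with quality weights without the 3 libraries, added after the data were seen, called 60 and 3, of which 39 were shared with DESeq2 (61.9% and 76.5%). The fit of 3 against 3, which also leaves out ACKR2-/- replicate 5 and was added likewise, called 1 gene lower, Ackr2. With a replicate block edgeR called 0 and 0 genes, with 167 higher and 318 lower at an unadjusted p under 0.05, and as the numbers did not pair the libraries (1 WT library correlated best with the ACKR2-/- library of its number) the block was not used.

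Under exact permutation without the 3 libraries, differences and p were -17.3 CPM and 0.057 for Ackr2, 18.3 CPM and 0.057 for Wdfy1, -91.1 CPM and 0.29 for C1qa, and 139.5 CPM and 0.63 for H2-Ab1, whose direction turned; 0.057 is the smallest p of that set. With each library left out in turn the difference ran from -14.6 to -9.05 CPM for Ackr2, -760.1 to -116 CPM for C1qa, -306 to 54.3 CPM for Csf1r and -5101 to 67.7 CPM for H2-Ab1, and 16.1 to 18.9 CPM for Wdfy1. The exact p was 0.016 for Wdfy1 in each of these, from 0.032 to 0.079 for C1qa, and 0.016 for Ackr2 without the library labelled WT replicate 5 and 0.079 to 0.095 without any other library. On the log2 scale the values with each library left out ran from -0.35 to 0.10 for Csf1r (0.06 without ACKR2-/- replicate 5), -2.53 to 0.11 for H2-Ab1, -3.02 to 0.18 for H2-Eb1 and -1.06 to 0.79 for Ccr2. H2-Ab1 turned to 0.16 (DESeq2 0.17, limma 0.32) without the 3 libraries, 0.094 with 3 against 3 and 0.11 without WT replicate 3 alone, H2-Eb1 likewise to 0.20, 0.22, 0.32, 0.26 and 0.18. Ccr2 turned to 0.75, 0.76, 0.89, 0.72 and 0.79 in the same fits, to 0.64 in limma with quality weights and to 0.21 with the replicate block. The values without WT replicate 3 alone show that this library set these 3 directions.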

Other observations

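Igha, the heavy chain of the antibody class that plasma cells of mucosal tissue make, was not tied to genotype. It stood at 2.17, 3.36, 468, 1.37 and 0.504 CPM in WT and at 205, 59.0, 0.774, 0.0402 and 206 CPM in ACKR2-/- libraries. High and low libraries occurred in both genotypes, and without WT replicate 3, the library labelled WT replicate 5 and ACKR2-/- replicate 4, DESeq2 called Igha higher at a log2 fold change of 5.72 (adjusted p = 0.0113), against -0.02 (adjusted p = 1) with all libraries. Platelet genes, from fragments that circulate with blood cells, stood lower in ACKR2-/- libraries, with 6 of 6 lower and a median log2 fold change of -0.89, and -1.05 without the 3 libraries, where 2 had an unadjusted p under 0.05. Their summed level stood at 18.6 to 36.2 CPM in WT and 8.04 to 24.8 CPM in ACKR2-/- libraries, which overlap. Cell cycle genes turned with the set of libraries: 34 of 37 were lower with a median of -0.39 with all libraries, and 29 of 37 were higher with a median of 0.17 without the 3.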
